A study of Homo sapiens with 42 samples.

Results

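The human lung cancer line H460 was compared at 12 h after 2 Gy of gamma radiation with the same line at 0 h. The comparison was taken from the deposited value table as the 3 arrays titled H460 at 12 h against the 6 titled H460 at 0 h, over all genes, and covered 9 of the 42 arrays of the study and 18404 genes. The study calls H460, a line from a large-cell lung carcinoma, radiosensitive and its companion H1299, from a non-small cell tumour, radioresistant. As background, H460 carries functional p53, whereas H1299 makes none. Other arrays of H460 (3 each at 2, 4, 8 and 24 h) and the H1299 arrays at 12 h (n = 3) and 0 h (n = 6) were used only to show where the 12 h state of H460 differed. No array is labelled as unirradiated at 12 h, so 12 h after irradiation and 12 h longer in culture cannot be told apart in any change given here. The protocol mentions unirradiated control cells carried along, and the labels do not say whether such cells were put on any 0 h array. All values come from a single cultured tumour line, and the p-values measure the spread between arrays that the labels call biological replicates.

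Levels are log2 intensities as the authors deposited them, and a change is the 12 h mean minus the 0 h mean, so a change of 1 is 2-fold. Errors after ± are standard errors of the limma model over the 21 H460 arrays, and p-values were adjusted by the Benjamini-Hochberg method across the 18404 genes, with a threshold of 0.05. Words such as rose, fell, higher and lower are used of single genes only below that threshold. The 9 arrays had medians between 6.03 and 6.10. They differed in the width of their distributions, measured as the interquartile range, which averaged 3.67 ± 0.050 in the 12 h arrays and 3.34 ± 0.17 in the 0 h arrays (SD). The narrowest 12 h array (3.628) and the widest 0 h array, replicate 6 (3.628), were alike, and the other 5 arrays at 0 h lay lower. Counts are therefore also given with array width as a covariate in the model where that moved them by over 1.5 times, and the part of width in those results was not tested. Of the epithelial markers, KRT8 stood at 12.17 at 12 h and 12.18 at 0 h and KRT18 at 12.02 and 12.18. EPCAM stood at 3.85 and 3.97 and CDH1 at 3.75 and 3.78, and without detection calls these levels do not say which of the 4 were expressed. Of the 10 measured epithelial markers 0 passed the test at 12 h, and of the 10 leukocyte markers 0 did, against 33.5% of all genes. Of 10 fibroblast markers 1 was higher and 2 were lower, and of 7 endothelial markers 2 were lower, none of them with width in the model. Of all genes 16.7% were higher and 16.8% lower.

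**Figure D1:**
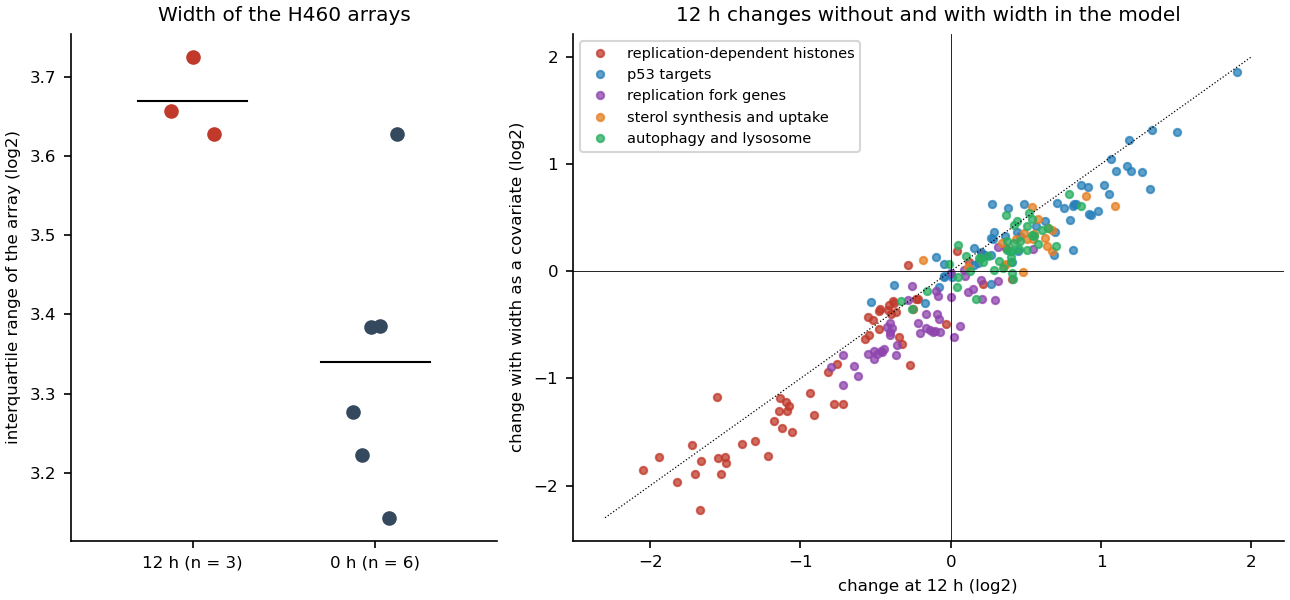
The left panel shows the interquartile range (log2) of each H460 array at 12 h (3 arrays) and at 0 h (6 arrays), with group means as lines. The right panel sets the 12 h change of each list member (log2) against its change with width as a covariate, with a dotted line of equality. The histone genes with the largest falls had large negative values on both axes, and most sterol and lysosome genes lay closer to 0 on the vertical axis.

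Of the 18404 genes, 6161 (33.5%) passed the test at 12 h, 3065 higher and 3096 lower. With array width as a covariate 628 (3.41%) passed, 558 of them among the 6161. At least 2-fold changes were rarer, with 110 genes (0.598%) higher and 44 (0.239%) lower. Of those 44 falls, 23 were replication-dependent histone genes. The 25 largest rises with arrays apart from 0 h were led by TP53INP1, and 21 of them also passed with width in the model. The 25 largest falls were led by H4C14, a histone H4 gene, and 22 of them passed with width.

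**Figure D2:**
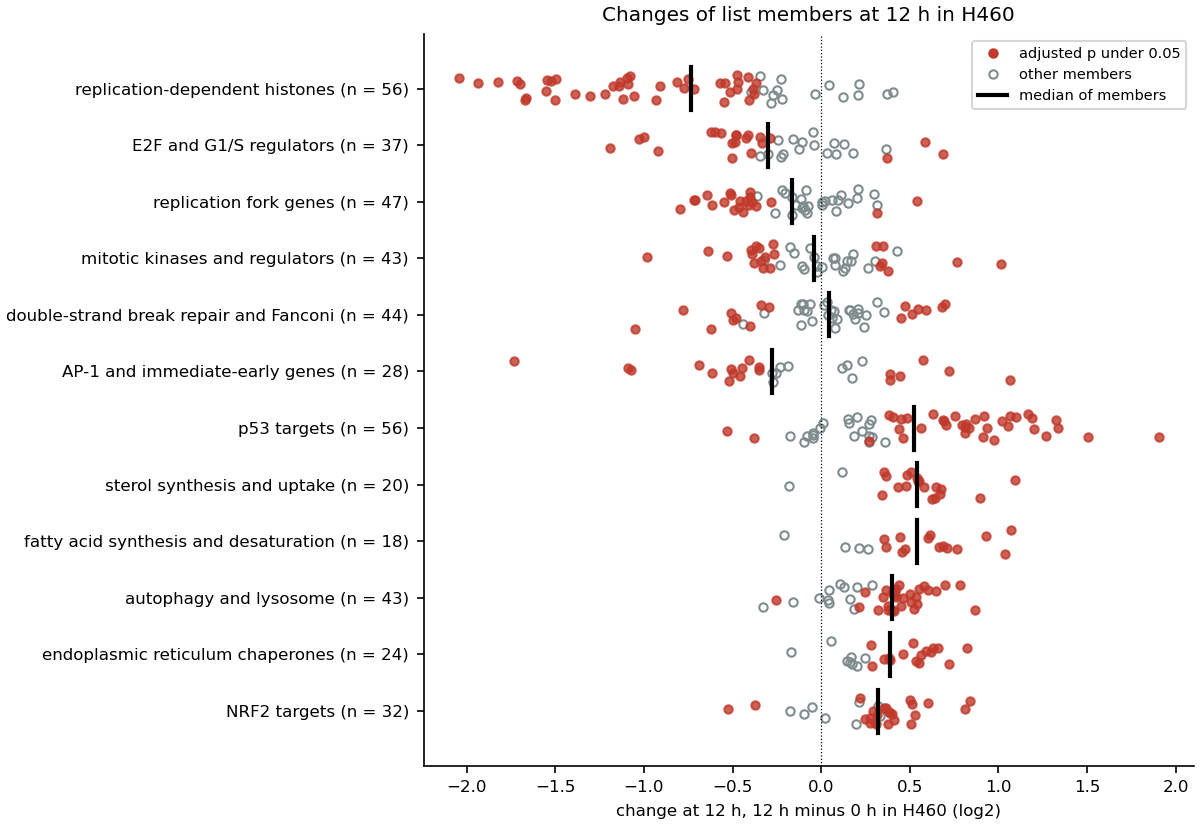
Each point is the change (log2, 12 h minus 0 h in H460) of 1 gene, placed in the row of its list, with filled points for genes at adjusted p under 0.05 and black bars for list medians. Histone genes spread to -2.05 with a median of -0.74, and p53 targets spread to 1.91 with a median of 0.53.

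Replication-dependent histone genes supply the proteins that package newly made DNA, and their transcripts are known to accumulate in S phase and to end in a stem-loop in place of a poly(A) tail. Stem-loop binding protein (SLBP) carries these transcripts through processing, export and translation, and they are broken down quickly when DNA synthesis stops. Irradiated cells with functional p53 raise the inhibitor p21 and slow their entry into S phase.

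The largest decreases at 12 h in H460 were in these histone genes. H4C14 had 8.32, 8.22 and 8.29 in the 12 h arrays, and its 0 h arrays ran from 10.15 to 10.59 with a median of 10.30. The highest 12 h array thus lay far below the lowest 0 h array, and H4C14 fell by 2.05 ± 0.15 (4.13-fold lower, adjusted p = 1.21e-09). H2AC21, a histone H2A gene, had 9.53, 9.44 and 9.32 at 12 h, against a 0 h range of 10.93 to 11.71 with a median of 11.45. It fell by 1.94 ± 0.14 (3.83-fold lower, adjusted p = 9.21e-10), again with no overlap. H3C2, a histone H3 gene, had 7.95, 8.29 and 7.73 at 12 h, against 9.56 to 10.14 with a median of 9.73 at 0 h, and fell by 1.82 ± 0.15 (adjusted p = 4.43e-09). H2BC14, a histone H2B gene, had 10.01, 10.16 and 9.92 at 12 h, against 11.51 to 11.92 with a median of 11.74 at 0 h, and fell by 1.70 ± 0.12 (adjusted p = 9.21e-10). The linker histone gene H1-5 had 8.82, 8.91 and 8.85 at 12 h, against 10.15 to 11.06 with a median of 10.56 at 0 h, and fell by 1.67 ± 0.16 (adjusted p = 6.02e-08). The 3 arrays at 12 h lay together and below all 6 at 0 h in each of these genes.

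Of the 56 measured histone genes, 41 fell, 0 rose and 15 did not pass, against 16.8% of all genes lower. Their median change was -0.74, beside -0.04 over all genes, and 36 of them had 12 h arrays below all 0 h arrays (13.7% of all genes). With array width in the model 29 fell, against 1.81% of all genes, and the median was -0.91. Each family held genes that fell. These were bulk RNA samples, so fewer cells in S phase and less histone RNA per cell cannot be told apart. Among the linker H1 genes 5 of 6 fell, with a median of -1.12, and among H2A genes 10 of 14, with a median of -0.95. Among H3 genes 6 of 8 fell (median -0.92), and among H4 genes 10 of 12 (median -0.66). H2B genes had the median nearest to 0, -0.45, with 10 of 16 lower. Most of the genes lie in the large cluster on chromosome 6, where 38 of 49 fell, and 6 lie on chromosome 1, where 3 fell, by the chromosomes of RefSeq (GRCh38.p14). Histone genes are near-identical copies, so a probe set can bind RNA of several copies, and which copy changed is uncertain.

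Among the 15 histone genes that did not pass, H2BC12 had 8.84, 8.95 and 8.82 at 12 h, against 7.93 to 8.95 with a median of 8.57 at 0 h, and its arrays overlapped (change 0.41 ± 0.17, adjusted p = 0.0596). H2BC21 changed by 0.12 ± 0.14 (adjusted p = 0.505), H2BC5 by 0.37 ± 0.16 (adjusted p = 0.0818) and H3C10 by 0.21 ± 0.18 (adjusted p = 0.383). As background, H2BC5, H2BC12 and H2BC21 are known to make polyadenylated transcripts as well. The other 11 had changes between -0.40 and 0.21 (H2AC11 and H4C16).

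**Figure D3:**
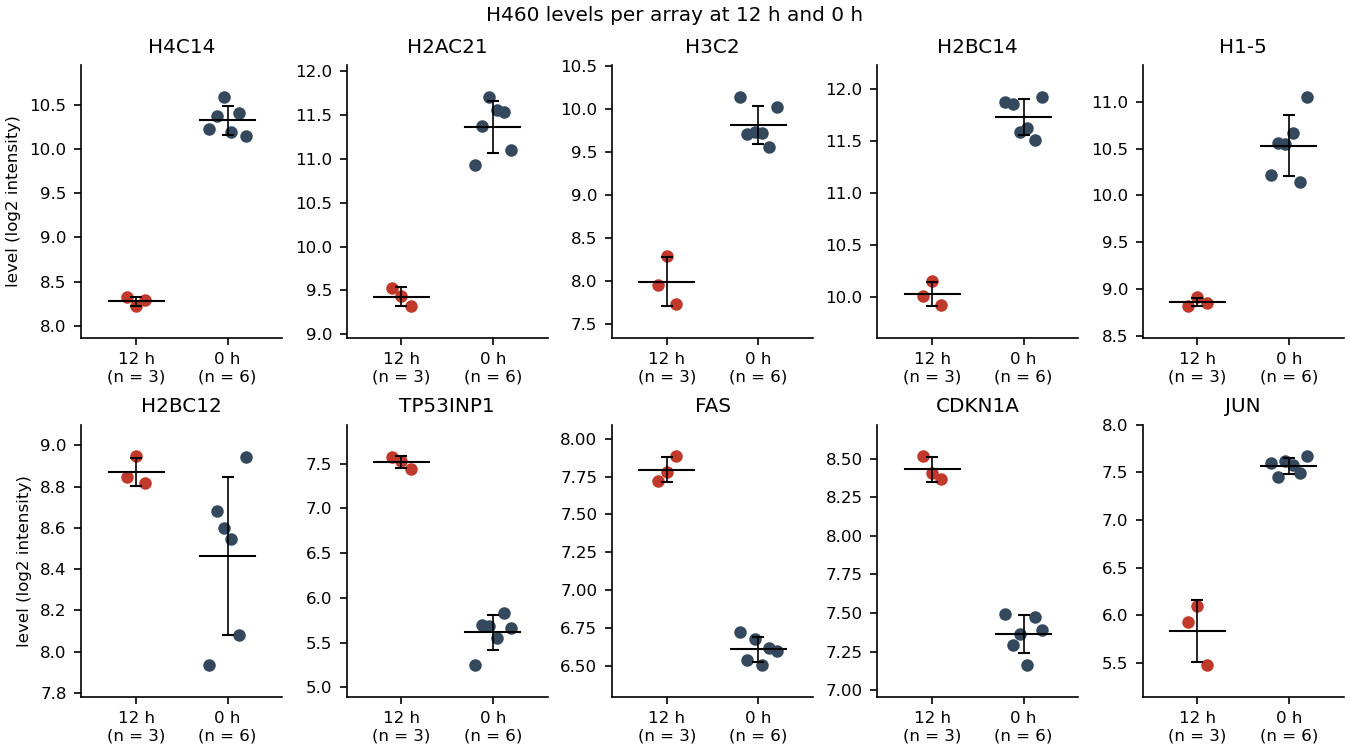
Points are single H460 arrays at 12 h (left, n = 3) and 0 h (right, n = 6), with the level in log2 intensity on the vertical axis of each panel, which does not start at 0. Horizontal lines are group means and bars are SDs. The first 5 histone genes and JUN lay lower at 12 h with no overlap, H2BC12 overlapped, and TP53INP1, FAS and CDKN1A lay higher with no overlap.

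The promoters of H2A and H2B genes are known for an octamer bound by OCT1, so the sequences before the start sites were read from RefSeq (GRCh38.p14, 250 bases before to 50 after the start). The first pair of promoters below belongs to H2B genes that fell, and the third to an H2B gene that did not pass. Capitals mark the octamer ATTTGCAT.
H2BC14, chr6:27814772-27815071, plus strand: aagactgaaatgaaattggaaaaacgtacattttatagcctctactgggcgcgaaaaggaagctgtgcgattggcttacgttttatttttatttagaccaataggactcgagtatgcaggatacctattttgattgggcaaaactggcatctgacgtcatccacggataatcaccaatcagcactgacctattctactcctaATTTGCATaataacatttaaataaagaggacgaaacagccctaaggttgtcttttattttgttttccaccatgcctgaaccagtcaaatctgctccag
H2BC9, chr6:26251364-26251663, plus strand: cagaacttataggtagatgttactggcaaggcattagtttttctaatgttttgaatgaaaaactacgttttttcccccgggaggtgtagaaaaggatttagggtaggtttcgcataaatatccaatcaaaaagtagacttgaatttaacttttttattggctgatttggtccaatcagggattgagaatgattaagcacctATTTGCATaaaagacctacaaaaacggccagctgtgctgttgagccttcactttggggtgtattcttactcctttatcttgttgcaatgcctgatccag
H2BC21, chr1:149886633-149886932, minus strand: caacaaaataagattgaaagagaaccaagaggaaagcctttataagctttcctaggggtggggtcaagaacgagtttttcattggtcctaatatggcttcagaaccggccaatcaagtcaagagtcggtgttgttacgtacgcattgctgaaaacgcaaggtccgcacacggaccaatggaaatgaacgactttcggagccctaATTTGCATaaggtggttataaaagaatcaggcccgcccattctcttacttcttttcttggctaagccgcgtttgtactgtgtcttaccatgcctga
The octamer began 48 bases before the start in H2BC14 (change -1.70), 49 in H2BC9 (change -1.53) and 46 in H2BC21 (change 0.12). Searched on both strands, it stood in 13 of 16 H2B genes with a promoter in the table, in 10 of 13 H2A genes and in 0 of the H1, H3 and H4 genes, against 1.77% of all 35116 promoters. The 16 H2B genes had 18 promoters, so for them a share of genes is set beside a share of promoters. Among H2A genes 8 of 10 with the octamer and 1 of 3 without it fell, and among H2B genes 9 of 13 and 1 of 3. Of the H1, H3 and H4 genes with a promoter in the table, none of which holds the octamer, 17 of 22 fell.

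The fall of the histone genes stood apart in time. At 8 h 7 of the 56 were below 0 h and 1 above (6.22% and 10.7% of all genes), with a median of -0.06, and at 24 h 13 were below and 6 above (12.4% and 16.2% of all genes), with a median of -0.08. These contrasts share the 0 h arrays, so 12 h was also tested directly against its neighbours. Against 8 h, 52 genes passed (0.283%), 8 higher (0.0435%) and 44 lower, and 25 of the 44 were histone genes. Against 24 h, 359 passed (1.95%), 117 higher and 242 lower, and 27 of the 242 were histone genes. After centring each array on its median the 24 h split was 302 higher and 166 lower, and with arrays scaled to 1 width 62 and 72. H2BC14 stood -1.70 from 8 h (adjusted p = 1.16e-07) and -1.34 from 24 h (adjusted p = 5.49e-06), and H1-5 -1.63 and -1.61 (adjusted p = 1.27e-05 and 7.85e-06).

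In all, 27 genes were lower at 12 h than at 0, 8 and 24 h at the threshold. They were 25 histone genes, FBXO5 and FOXD1. FBXO5, an inhibitor of the anaphase-promoting complex, had 7.63, 7.49 and 7.57 at 12 h, against 8.47 to 8.89 with a median of 8.53 at 0 h, and fell by 1.03 ± 0.10 (adjusted p = 9.89e-08). It was -0.71 from 8 h and -0.50 from 24 h. FOXD1, a forkhead transcription factor, fell by 0.66 ± 0.14 against 0 h (adjusted p = 0.00112). Conversely, 0 genes were higher at 12 h than at all 3 other times in the limma fit over the 21 arrays, and 145 were at an unadjusted p under 0.05. With only the arrays compared in each fit, 350 genes were, and 99 were lowest, 30 of them histones. FOXD1 missed the threshold against 0 h with width in the model (adjusted p = 0.12). Leaving out 12 h replicate 3 left 17 genes lowest at 12 h, all of them histones.

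**Figure D4:**
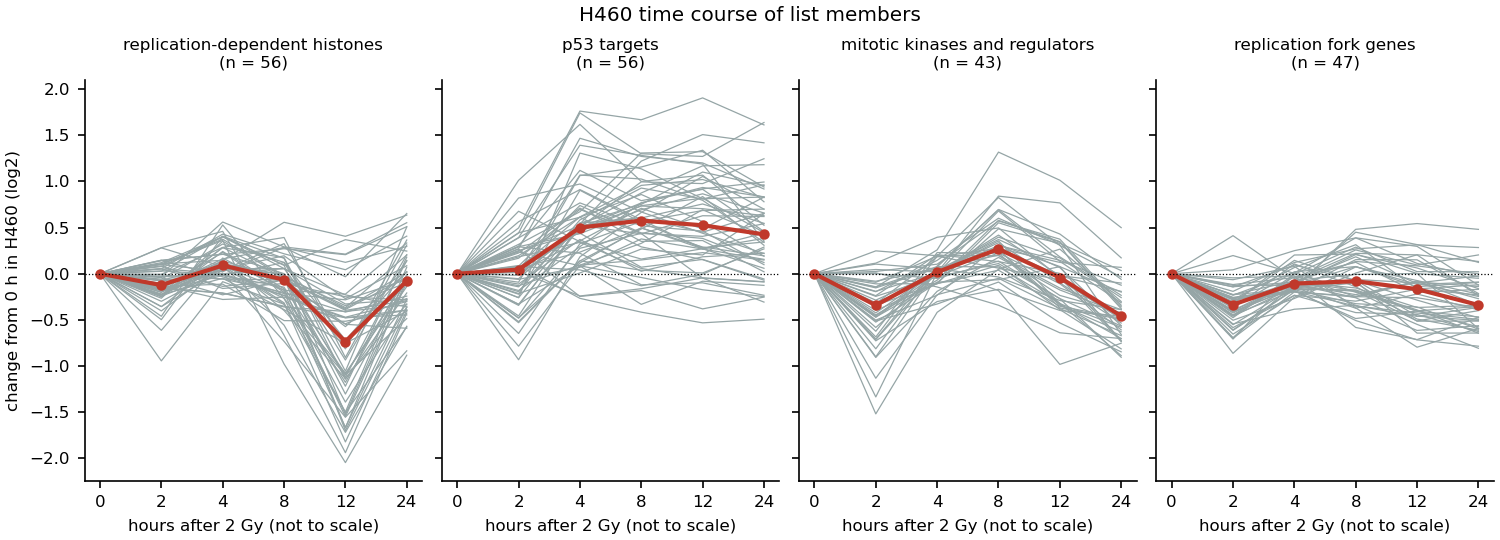
Grey lines are the changes of single genes from 0 h in H460 (log2) at 2, 4, 8, 12 and 24 h after 2 Gy, with time points evenly spaced, and red lines are list medians. Histone genes dipped at 12 h to a median of -0.74, p53 targets stayed near 0.5 from 4 h on, and mitotic genes peaked at 8 h.

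Of 16 measured factors that process histone transcripts, 3 were higher (TUT7, CSTF2T and SYMPK) and 0 lower, against 16.7% and 16.8% of all genes. The share that was higher was near that of all genes. None of the 3 kept the call with width in the model. SLBP had 8.50, 8.48 and 8.49 at 12 h, against 8.30 to 8.95 with a median of 8.53 at 0 h, so its arrays overlapped. Its change was -0.08 ± 0.12 (adjusted p = 0.636), or -0.42 with width in the model (adjusted p = 0.0872), and it passed in neither fit. NPAT, the cyclin E-linked activator of histone genes, changed by 0.04 ± 0.13 (adjusted p = 0.85). Of 20 measured histone chaperones 4 fell and 1 rose, against 16.8% and 16.7% of all genes. CHAF1A and CHAF1B, subunits of chromatin assembly factor 1, fell by 0.57 ± 0.092 and 0.66 ± 0.13 (adjusted p = 9.47e-05 and 0.000536), DNAJC9 by 0.59 ± 0.098 and ASF1B by 0.47 ± 0.15, whereas NAP1L1 rose by 0.39 ± 0.078, a rise that became -0.09 with arrays scaled to 1 width. ASF1B missed the threshold without 12 h replicate 3. Of 9 histone genes also expressed outside S phase 2 fell, against 16.8% of all genes. H2AX, whose protein marks DNA breaks, fell by 0.74 ± 0.12 (adjusted p = 9.99e-05) and H3-5 by 0.39 ± 0.093 (adjusted p = 0.00282, or 0.147 with width in the model). H2AZ1 changed by -0.11 ± 0.098 (adjusted p = 0.39).

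Nearly as many G1/S genes fell as did not. Of 37 measured, 18 fell and 3 rose (16.8% and 16.7% of all genes), with a median of -0.30. With width in the model 11 fell and 0 rose (1.81% and 1.6% of all genes). CCNE2, which encodes cyclin E2, had 6.68, 6.61 and 6.49 at 12 h, against 7.60 to 8.06 with a median of 7.73 at 0 h, and fell by 1.19 ± 0.15 (adjusted p = 2.49e-06), with arrays apart. The atypical repressor E2F8 averaged 5.90 at 12 h and 6.90 at 0 h (adjusted p = 1.14e-06). Its relative E2F7 fell by 0.60 ± 0.10, the phosphatase CDC25A by 0.57 ± 0.091 and the licensing factor CDT1 by 0.62 ± 0.11. Those that rose were RBL2 (0.69), E2F5 (0.58) and TFDP2 (0.37), which encode the pocket protein p130, a repressor-type E2F and an E2F partner. CCND1, cyclin D1, had 8.69 at 12 h and 8.80 at 0 h and did not pass.

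Of 47 replication fork genes, 19 fell and 2 rose (16.8% and 16.7% of all genes), with a median of -0.17. FEN1, the nuclease that trims Okazaki fragments, had 8.67, 8.48 and 8.61 at 12 h, against 9.25 to 9.48 with a median of 9.42 at 0 h, and fell by 0.80 ± 0.092 (adjusted p = 1.15e-06). The helicase subunit MCM5 fell by 0.72 ± 0.084, the polymerase delta subunit POLD3 by 0.71 ± 0.14, GINS2 by 0.64 ± 0.12 and the origin recognition subunit ORC1 by 0.55 ± 0.10, whereas ORC2 and POLD2 rose by 0.54 ± 0.11 and 0.31 ± 0.09, and neither rise kept its call with width in the model. With arrays scaled to 1 width POLD2 stood at -0.02. Members of 1 complex did not all pass. MCM2, MCM4, MCM5 and MCM7 fell (MCM2 at adjusted p = 0.0976 with width in the model), while MCM3 (-0.17) and MCM6 (-0.09) did not pass, and PCNA, the sliding clamp, changed by 0.11 ± 0.12. In nucleotide supply 6 of 24 fell and 1 rose, against 16.8% and 16.7% of all genes. The glycosylase UNG, which removes uracil from DNA, fell by 0.75 ± 0.11, thymidine kinase TK1 by 0.60 ± 0.10 and the ribonucleotide reductase subunit RRM2 by 0.56 ± 0.10, and SAMHD1, which breaks down deoxynucleotides, rose by 0.40 ± 0.11, a call that was lost with width in the model (adjusted p = 0.383).

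E2F factors are known to bind upstream of such genes at sites that vary in their middle letters, and 3 spellings were searched on both strands, TTTCCCGC, TTTGGCGC and TTTCGCGC. Matches of different spellings may overlap, and a promoter was counted once. The promoters of 2 genes that fell are shown from RefSeq (GRCh38.p14), with the match, on the reverse strand in GINS2, in capitals.
GINS2, chr16:85688905-85689204, minus strand: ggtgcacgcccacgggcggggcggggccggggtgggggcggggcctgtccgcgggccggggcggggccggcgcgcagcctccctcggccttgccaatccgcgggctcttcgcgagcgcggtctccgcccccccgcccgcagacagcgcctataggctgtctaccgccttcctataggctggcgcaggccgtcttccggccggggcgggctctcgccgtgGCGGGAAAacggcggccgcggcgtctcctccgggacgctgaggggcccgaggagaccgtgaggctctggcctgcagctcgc
CDC25A, chr3:48188368-48188667, minus strand: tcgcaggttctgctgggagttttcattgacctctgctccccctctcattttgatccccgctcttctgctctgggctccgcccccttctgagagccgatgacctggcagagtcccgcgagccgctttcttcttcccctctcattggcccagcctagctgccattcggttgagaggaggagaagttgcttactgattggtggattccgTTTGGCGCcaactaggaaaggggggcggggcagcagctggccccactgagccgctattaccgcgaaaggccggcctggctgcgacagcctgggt
At least 1 of the spellings stood in 18 of 39 replication fork genes with a promoter in the table, of which 9 fell (as did 7 of 21 without one), and in 12 of 29 G1/S genes, of which 7 fell (as did 7 of 17 without one), against 2.74% of all promoters. The 39 and 29 genes had 49 and 41 promoters, so a share of genes is set beside a share of promoters. A match names letters, not a bound site.

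Of 43 mitotic kinases and regulators, 14 fell and 7 rose, against 16.8% and 16.7% of all genes, with a median of -0.04. The kinase AURKB had 8.67, 8.37 and 8.49 at 12 h, against 9.43 to 9.64 with a median of 9.46 at 0 h, and fell by 0.98 ± 0.095 (adjusted p = 9.59e-08). Separase (ESPL1) fell by 0.53 ± 0.11, the inhibitory kinase PKMYT1 by 0.64 ± 0.16 and cyclin A2 (CCNA2) by 0.39 ± 0.10. CKS2, a small subunit of cyclin-dependent kinases, rose by 1.01 ± 0.22, the ubiquitin ligase G2E3 by 0.77 ± 0.16, securin (PTTG1) by 0.37 ± 0.099 and cyclin B1 (CCNB1) by 0.34 ± 0.10, which became -0.12 with arrays scaled to 1 width. With width in the model 0 of the 43 rose and 11 fell (1.6% and 1.81% of all genes). Against 8 h, 5 of the 43 were lower at 12 h (AURKB, CCNF, GTSE1, CDC25C and UBE2C), beside 0.239% of all genes. Against 24 h 12 were higher (0.636% of all genes), among them PLK1 (0.81) and CCNB2 (0.73). At the centromere HJURP, the chaperone of the centromeric histone, fell by 0.76 ± 0.095 (adjusted p = 3.41e-06), one of 8 of 34 such genes that fell (16.8% of all genes).

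Of 44 genes of double-strand break repair and the Fanconi pathway, 9 fell and 7 rose, against 16.8% and 16.7% of all genes. RAD51AP1, a partner of the strand exchange enzyme, had 6.83, 7.07 and 7.10 at 12 h, against 7.61 to 8.21 with a median of 8.12 at 0 h, and fell by 1.05 ± 0.15 (adjusted p = 2.7e-05). RAD54L fell by 0.78 ± 0.11 and RAD18 by 0.62 ± 0.12. FANCF rose by 0.70 ± 0.14 and the end-joining ligase LIG4 by 0.55 ± 0.12. All 7 genes that rose missed the threshold with width in the model, where 8 genes were lower (1.81% of all genes). Among checkpoint kinases ATM rose by 0.90 ± 0.15 and ATR by 0.52 ± 0.12, and neither passed with width in the model (adjusted p = 0.111 and 0.466). The kinases CHEK1, CHEK2 and WEE1 changed by 0.05, 0.44 and 0.27 and did not pass (adjusted p = 0.776, 0.0737 and 0.28).

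Most targets of p53 were higher at 12 h. TP53INP1, a stress-induced partner of p53, had 7.58, 7.54 and 7.44 at 12 h, against 5.25 to 5.83 with a median of 5.67 at 0 h. The groups lay far apart, and TP53INP1 rose by 1.91 ± 0.12 (3.75-fold, adjusted p = 8.43e-11). CDKN1A, which encodes p21, had 8.52, 8.40 and 8.37 at 12 h, against 7.16 to 7.49 with a median of 7.38 at 0 h, and rose by 1.07 ± 0.13 (2.1-fold, adjusted p = 1.91e-06). MDM2, the ubiquitin ligase that degrades p53, had 10.78, 10.65 and 10.67 at 12 h, against 9.60 to 10.13 with a median of 9.75 at 0 h, and rose by 0.91 ± 0.11 (1.88-fold, adjusted p = 1.43e-06). The death receptor gene FAS had 7.72, 7.78 and 7.89 at 12 h, against 6.50 to 6.72 with a median of 6.61 at 0 h, and rose by 1.19 ± 0.091 (adjusted p = 1.9e-09). None of these 4 genes overlapped between the times.

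Of 56 measured p53 targets, 35 rose and 2 fell, against 16.7% and 16.8% of all genes, with a median of 0.53. With width in the model 19 rose and 0 fell (1.6% and 1.81% of all genes). By role, receptors that rose were EDA2R (1.34), the RNA sensor TLR3 (1.10), PLXNB2 (1.02) and the TRAIL receptor TNFRSF10B (0.63). The mitochondrial quality gene SPATA18 rose by 1.51 ± 0.15, the secreted factor GDF15 by 1.27 ± 0.16, and the sestrins SESN1 and SESN2, inhibitors of growth signalling, by 1.20 ± 0.16 and 0.87 ± 0.11. Repair genes among the targets rose by 0.76 ± 0.11 (XPC), 0.56 ± 0.099 (DDB2) and 0.80 ± 0.12 (the translesion polymerase POLH), and the reductase subunit RRM2B rose by 1.05 ± 0.20. Of these 4, XPC kept its call with width in the model. The targets that fell were TP53I11 (-0.53) and the BH3 gene BBC3 (-0.38). BAX had 8.65 at 12 h and 8.75 at 0 h (adjusted p = 0.517), GADD45A changed by 0.15 ± 0.10 and PERP by -0.01 ± 0.098, and none of the 3 passed.

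Few p53 targets passed between 12 h and the neighbouring times. Of the 56, 0 passed between 12 h and 8 h, where 0.283% of all genes did, so the 0 does not set them apart. In simulated data the test of 12 h against 8 h recovered 44 of 100 genes shifted by 0.5, so differences of that size could be missed. Higher at 12 h than at 24 h were 2 (0.636% of all genes), FAS by 0.83 and EDA2R by 0.56 (adjusted p = 2.2e-05 and 0.0144). Among apoptosis genes CASP9, the initiator caspase, rose by 0.95 ± 0.11 and BAK1 by 0.73 ± 0.14, while the survival gene BCL2L1 fell by 0.54 ± 0.11 and MCL1 rose by 0.48 ± 0.095. BAK1 and MCL1 missed the threshold with width in the model (adjusted p = 0.507 and 0.208).

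Lipid synthesis genes were higher. Of 20 sterol genes 18 rose and 0 fell (16.7% and 16.8% of all genes), with a median of 0.54. With width in the model, however, 3 rose (STARD4, DHCR7 and LSS), beside 1.6% of all genes, and the median was 0.30. MSMO1, a sterol oxidase, rose by 1.09 ± 0.22, the cholesterol carrier STARD4 by 0.90 ± 0.12 and squalene epoxidase (SQLE) by 0.68 ± 0.11. Of 18 fatty acid genes 14 rose, of which 4 passed with width, and 0 fell. The shares of all genes were 16.7% higher, 1.6% higher with width, and 16.8% lower. The desaturase FADS2 had 9.65, 9.79 and 9.72 at 12 h, against 8.54 to 8.75 with a median of 8.65 at 0 h, and rose by 1.07 ± 0.093 (adjusted p = 1.3e-08). The stearoyl desaturase SCD rose by 1.04 ± 0.084, and against 24 h FADS2 stood at -0.46 and SCD at -0.44 (adjusted p = 0.0197 and 0.0142).

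Growth signalling genes split. JUN, an AP-1 subunit, had 5.93, 6.10 and 5.47 at 12 h, against 7.46 to 7.67 with a median of 7.59 at 0 h, and fell by 1.73 ± 0.13 (3.33-fold lower, adjusted p = 1.9e-09), with all 12 h arrays below those at 0 h. FOSL1, another AP-1 subunit, fell by 1.07 ± 0.15 and the zinc finger factor EGR1 by 1.09 ± 0.13, whereas JUNB had 8.38, 8.55 and 8.23 at 12 h, against 7.13 to 7.62 with a median of 7.26 at 0 h, and rose by 1.07 ± 0.13 (adjusted p = 3.94e-06). In all, 13 of 28 AP-1 and immediate-early genes fell and 6 rose (16.8% and 16.7% of all genes). With width in the model 7 fell and 2 rose (1.81% and 1.6% of all genes). FOS itself changed by -0.28 ± 0.12 and MYC by 0.15 ± 0.073, and neither passed. The collagenase gene MMP1, known as a gene driven by AP-1, fell by 1.35 ± 0.14 (adjusted p = 2.13e-07). In H1299 at 12 h MMP1 changed by -1.01 and JUN by -0.03, and whether the fall of MMP1 is tied to AP-1 was not tested. DUSP1, a phosphatase that switches off MAP kinases, had 10.70, 10.75 and 10.70 at 12 h, against 9.29 to 9.65 with a median of 9.35 at 0 h, and rose by 1.32 ± 0.091 (adjusted p = 4.33e-10). Another, DUSP6, rose by 0.70 ± 0.12 and DUSP2 fell by 0.59 ± 0.11, neither of which kept its call with width in the model.

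Several broader groups were higher at 12 h, and most of their members missed the threshold with array width in the model. Of all genes 16.7% were higher and 16.8% lower, or 1.6% and 1.81% with width, and the counts below stand beside these shares. Of 43 autophagy and lysosome genes 29 rose and 1 fell, and 3 rose with width (NEU1, CTSD and CTSZ). The sialidase NEU1 rose by 0.79 ± 0.09, the protease CTSD by 0.52 ± 0.10 and the autophagy receptor NBR1 by 0.65 ± 0.12. Of 24 endoplasmic reticulum genes (chaperones, stress sensors and factors, and protein degradation genes) 16 rose and 0 fell, and 1 rose with width, HYOU1 by 0.59. Of 32 NRF2 targets 22 rose and 2 fell, but with each array scaled to 1 width their median of 0.32 became -0.02. Of 41 interferon-stimulated genes 16 rose and 2 fell, led by PARP9 (0.95) and SAMD9L (0.93), and 2 rose with width. In the clock the repressors NR1D2 and NR1D1 fell by 0.92 ± 0.12 and 0.84 ± 0.12, and BMAL1, which they repress, rose by 0.83 ± 0.14 (adjusted p = 0.000149, or 0.232 with width).

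Outside these lists, the largest rises included metabolic and surface genes. AMDHD1, an enzyme of histidine breakdown, had 7.41, 7.48 and 7.32 at 12 h, against 5.24 to 6.06 with a median of 5.72 at 0 h, and rose by 1.74 ± 0.14 (adjusted p = 2.19e-09). TDO2, which opens the ring of tryptophan, rose by 1.60 ± 0.20, and its change at 8 h was 2.02. PDK4, which inhibits pyruvate dehydrogenase, rose by 1.46 ± 0.13, the nicotinamide riboside kinase NMRK1 by 1.46 ± 0.15, the desmosomal cadherin DSC3 by 1.57 ± 0.18, the adhesion gene CHL1 by 1.52 ± 0.16, the complement gene C3 by 1.31 ± 0.10 and the translation inhibitor PDCD4 by 1.31 ± 0.17. The largest falls outside the histones and JUN were CDSN, which encodes corneodesmosin of the skin barrier, and MMP1. CDSN had 5.28, 4.25 and 5.90 at 12 h, against 6.50 to 7.19 with a median of 6.86 at 0 h, and fell by 1.71 ± 0.34 (adjusted p = 0.000758, or 0.234 with width in the model). Its change was -0.30 at 8 h and -0.23 at 24 h, and in H1299 at 12 h it was -1.77. The matrix glycoprotein THBS1 fell by 1.28 ± 0.14, the carboxylesterase CES1 by 1.19 ± 0.24 and CDCA4, a regulator linked to E2F, by 1.19 ± 0.11. The chromatin methyltransferases EZH2 and SUV39H1 fell by 0.59 ± 0.091 and 0.56 ± 0.096 (adjusted p = 4.89e-05 and 0.000168).

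The radioresistant line H1299 at 12 h gave 5474 called genes (29.7%), against its own 0 h arrays. Of the genes called in both lines 1394 were higher and 967 lower in both, 83 were higher in H460 and lower in H1299, and 51 the reverse. The 12 h change itself differed between H460 and H1299 in 1598 genes (8.68%), being greater in H460 for 959 and smaller for 639, by the interaction of line and time over 42 arrays. Many histone genes fell in both lines. Their median was -0.74 in H460 and -0.35 in H1299, where 30 of 56 fell (13.1% of all genes), and the difference was negative in 21 genes and positive in 1 (3.47% and 5.21% of all genes). H2AC21 changed by -1.94 in H460 and -0.68 in H1299 (difference -1.26, adjusted p = 3.53e-05), and H1-3 by -1.55 and -0.35 (difference -1.20, adjusted p = 7.55e-08). The exception was H2BC21, with 0.12 in H460 and -0.59 in H1299.

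Of 56 p53 targets the change was greater in H460 for 30 and smaller for 2, the cytokine LIF and TNFRSF10A (5.21% and 3.47% of all genes). TP53INP1 changed by 1.91 in H460 and 0.33 in H1299 (adjusted p of the difference = 1.07e-10), SPATA18 by 1.51 and -0.12 (adjusted p = 5.47e-08), and CDKN1A by 1.07 and 0.06 (adjusted p = 9.41e-06). Mitotic genes went apart, with a median of -0.04 in H460 and 0.27 in H1299, where 24 of 43 rose and 1 fell (16.6% and 13.1% of all genes). The H460 change was smaller in 15 of the 43 and greater in 1 (3.47% and 5.21% of all genes). The largest negative differences included JUN, with -1.73 in H460 and -0.03 in H1299 (adjusted p = 4.94e-10), and the replication factor ATAD5, with -0.78 and 0.57 (adjusted p = 7.55e-08). The largest positive ones included DUSP1, with 1.32 and -0.45 (adjusted p = 3.04e-13). Sterol genes had a greater change in H460 for 10 of 20 and a smaller one for 0 (5.21% and 3.47% of all genes).

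**Figure D5:**
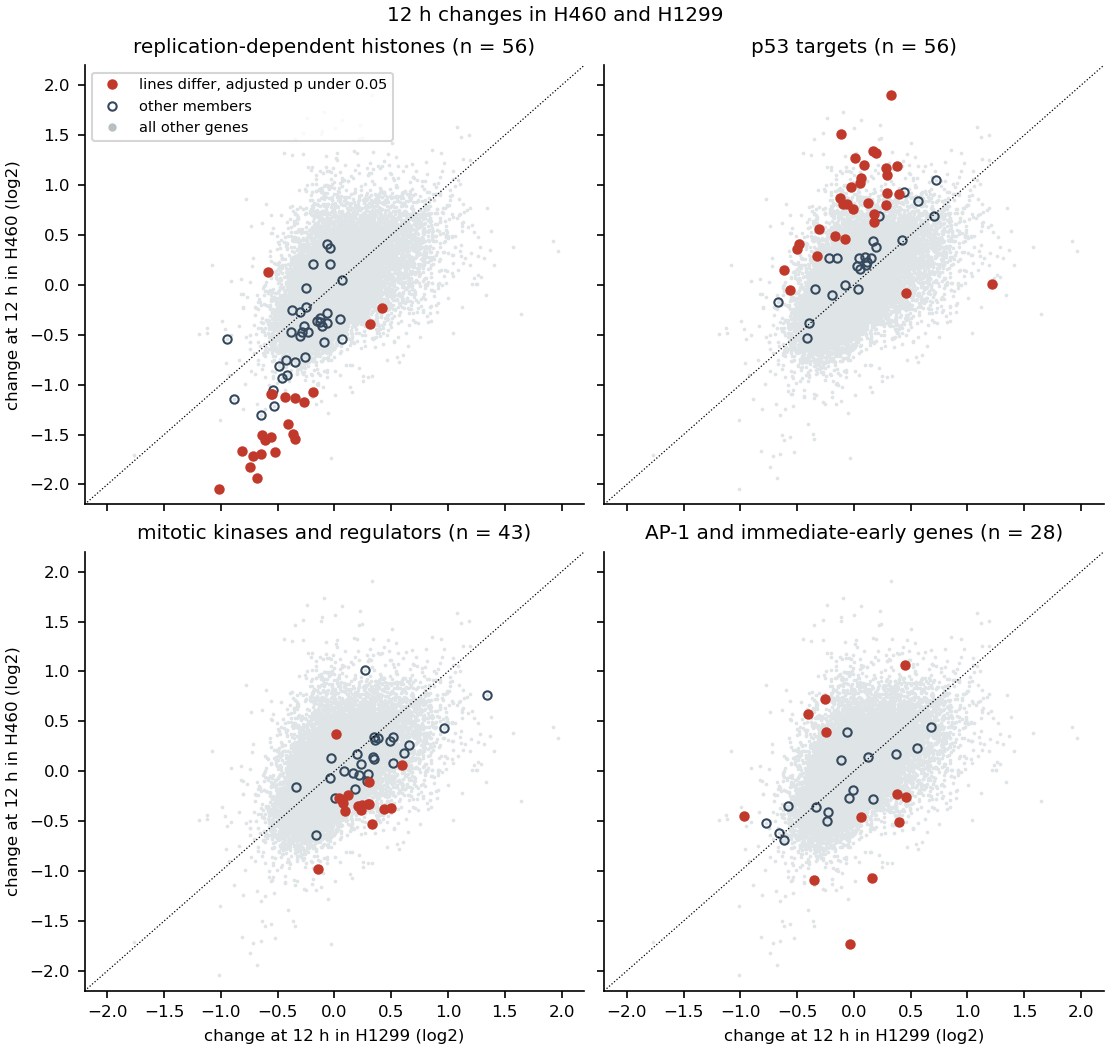
Each panel sets the 12 h change in H460 (vertical, log2) against that in H1299 (horizontal, log2), with list members in front of all genes in grey, filled where the lines differed at adjusted p under 0.05, and a dotted line of equality. Most histone genes lay below the line, and they reached -2.05 in H460 and -1.02 in H1299, both in H4C14, whereas most p53 targets lay above it.

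The arrays also carried probe sets for 173 microRNA loci, a class chosen after its values were seen. Such probe sets read the hairpin locus, not the mature microRNA. Of the loci 53 were lower and 1 higher at 12 h, with a median of -0.24, against 16.8% and 16.7% of all genes. With width in the model 4 were lower and 1 higher, against 1.81% and 1.6% of all genes. The 5 loci below were chosen, with their values known, for their place in known host genes, and their mature sequences from RefSeq (GRCh38.p14) have the seed, bases 2 to 8, in capitals.
hsa-miR-15a-5p, chr13:50049167-50049188, minus strand: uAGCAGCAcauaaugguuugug
hsa-miR-21-5p, chr17:59841273-59841294, plus strand: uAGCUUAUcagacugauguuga
hsa-miR-25-3p, chr7:100093571-100093592, minus strand: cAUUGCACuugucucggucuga
hsa-miR-93-5p, chr7:100093815-100093837, minus strand: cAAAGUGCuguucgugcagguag
hsa-miR-106b-5p, chr7:100094043-100094063, minus strand: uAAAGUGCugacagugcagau
The miR-93 and miR-106b sequences share the seed, and the other 3 have seeds of their own. MIR15A had 4.57, 4.14 and 3.91 at 12 h, against 4.75 to 5.56 with a median of 5.45 at 0 h, and fell by 1.12 ± 0.18 (adjusted p = 8.7e-05, or 0.000666 with width), and DLEU2, the gene that spans it, changed by -0.38 ± 0.23 (adjusted p = 0.197). MIR21 fell by 0.76 ± 0.18 (adjusted p = 0.00296, or 0.00121 with width), and VMP1, which spans it, changed by 0.27 ± 0.14 (adjusted p = 0.147). MIR106B, MIR93 and MIR25 lie within MCM7, and all 4 fell, by 0.75 ± 0.16, 0.63 ± 0.18, 0.57 ± 0.10 and, for MCM7, 0.39 ± 0.084. With width MIR25 and MCM7 kept the call (adjusted p = 0.04 and 0.00657), and MIR106B and MIR93 did not (0.0609 and 0.231). MIR34A, a known p53 target, changed by 0.03 ± 0.12 and did not pass (adjusted p = 0.862).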

How the data were processed

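RNA of cultured H460 and H1299 cells was hybridised to one-colour Affymetrix arrays, per the labels' protocols. The authors deposited normalized log2 values for 32321 probe sets on 42 arrays, and the summarization and normalization methods are not given in the sources used here. Gene names came from the platform annotation, which gave 19158 probe sets 1 symbol, 1388 several and 11775 none. One probe set per symbol, that with the highest mean, left 18404 genes. Arrays of H460 at 12 h (n = 3) and 0 h (n = 6) were compared with limma 3.58.1 in R 4.3.3, with 1 mean per time over the 21 H460 arrays, a trended prior and Benjamini-Hochberg adjustment, two-sided. The line difference used all 42 arrays. No detection calls were used here, so precision rests on how many arrays there are. Levels of different probe sets are not comparable.

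The members and gene lists were chosen with earlier results of these data known. Genes could be named when they were among the 25 largest rises or falls with arrays apart, the 12 largest line differences or the genes lowest at 12 h, and in each list when among the 8 smallest p-values, against the list's direction or needed to describe a complex or role. The fit was tested on simulated data with 100 genes shifted by 0.5 and 100 by 1, and for 12 h against 0 h it recovered 65 and 99 of them and called 12 unshifted genes among 18404. The simulated noise was independent between genes, and the simulated arrays did not differ in width as the real ones do. These counts therefore do not measure how many of the real calls are false. The values gave no sign that numbers in the titles pair the arrays. Same-numbered 12 h and 0 h arrays had correlations of deviations of 0.094, -0.078 and 0.0012. Those of differently numbered arrays ran from -0.133 to 0.139. So few values cannot exclude pairing. Alternatives changed the arrays fitted, low-value filter, variance prior, normalization, array width, weights and replicates. Some genes are not reported here.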

Additional observations from a re-analysis of the deposited data

Results flagged for a closer look

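Each of 165 named genes was checked for a 0 h array of H460 that stood far from the other 5. Chance flags about 1 in 20 groups, and 11 of 165 genes had such an array. In 8 of them it was replicate 1, which was highest for KRT8 (12.50, the others at most 12.18), PLK1 (11.31, at most 10.61), HJURP (10.89, at most 10.69) and H4C16 (3.96, at most 3.54), and lowest for KRT18 (11.75, the others at least 12.12), CCNB2 (9.22, at least 9.50), RAD51AP1 (7.61, at least 8.05) and MIR15A (4.75, at least 5.26). Replicate 6, the array of greatest width at 0 h, was highest for H2BC9 (9.73, the others at most 9.15) and DUSP1 (9.65, at most 9.41), and replicate 5 was lowest for INPP5E (6.57, the others at least 6.97). All 3 arrays at 12 h remained outside the 0 h range of H2BC9, DUSP1, HJURP, RAD51AP1, MIR15A and INPP5E.

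The 12 h change differed between H460 and H1299, by the limma interaction of line and time, for all 11 genes named in that comparison. The difference, H460 minus H1299, was positive for DUSP1 (1.77), SPATA18 (1.63), TP53INP1 (1.57), CDKN1A (1.005) and H2BC21 (0.71). It was negative for JUN (-1.70), ATAD5 (-1.34), H2AC21 (-1.26), LIF (-1.20), H1-3 (-1.20) and TNFRSF10A (-0.54). LIF changed by 0.01 in H460 and 1.21 in H1299, and TNFRSF10A by -0.08 and 0.46, so for these p53 targets the movement lay in H1299.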

How the results depend on the processing

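The count of genes that passed at 12 h against 0 h was 6161. Apart from fits with 1 array left out, it moved by over 1.5 times in 3 settings. These were array width as a covariate (628), 0 h replicates 4 to 6 only (3544) and adjusted p under 0.01 with at least 2-fold change (151). Leaving out 1 array gave 3816 (without 12 h replicate 2) to 7408 (without 0 h replicate 6), and the lowest of these was also beyond 1.5 times. The line difference, 1598, became 3883 with array weights, 961 with arrays scaled to 1 width and 136 at the stricter threshold, and 1065 to 2141 with 1 array left out. The 52 genes at 12 h against 8 h became 2737 with only the arrays compared, 202 with all 42 arrays, 1879 with array weights, 100 with width as a covariate, 29 with arrays scaled to 1 width and 18 at the stricter threshold, and 24 to 31 with 1 array left out. The 359 genes at 12 h against 24 h became 3067, 941, 2769, 634, 134 and 43 under the same 6 settings, and 136 to 189 with 1 array left out. With the replicate number as a block, though no sign of pairing was seen, 5625 genes passed at 12 h against 0 h, 1105 for the line difference, 46 against 8 h and 341 against 24 h. Of 165 named genes, 42 were no longer called with width as a covariate. The sign turned for CCNB1 (-0.12), NAP1L1 (-0.086) and POLD2 (-0.020) with arrays scaled to 1 width. Leaving out 1 array ended the call of ASF1B, BBC3, CCNF, CSTF2T, E2F5, GTSE1, MIR93, POLD2, SYMPK or TFDP2. The cause of these shifts was not tested. Precision is limited by the 3 arrays at 12 h, and no detection calls were used for dim probe sets.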

Other observations

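Genes of the primary cilium, the antenna-like organelle of resting cells, were among the groups not described above. At 12 h 18 of 36 measured members were higher than at 0 h and 1 was lower (16.7% and 16.8% of all genes), with a median change of 0.34. With array width in the limma model 1 was higher and 1 lower (1.6% and 1.81% of all genes). BBS10, a chaperonin-like protein of the BBSome pathway, had 7.39, 7.33 and 7.37 at 12 h, against 5.29 to 6.63 with a median of 5.96 at 0 h, and rose by 1.35 ± 0.20 (adjusted p = 3.62e-05, or 0.127 with width). IFT20, an intraflagellar transport subunit, rose by 0.87 ± 0.18, and BBS12 by 0.82 ± 0.14. The member that fell was INPP5E, a phosphatase of the ciliary membrane, by 0.60 ± 0.14 (adjusted p = 0.00211).

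Among targets of ATF4, the transcription factor of the amino acid response, 7 of 37 rose and 4 fell, against 16.7% and 16.8% of all genes. CTH, an enzyme of cysteine synthesis, had 7.29, 7.36 and 7.20 at 12 h, against 5.89 to 6.53 with a median of 6.03 at 0 h, and rose by 1.19 ± 0.14 (adjusted p = 1.05e-06). DDIT4, an inhibitor of growth signalling, rose by 1.19 ± 0.15 and CEBPB by 0.85 ± 0.099, whereas PPP1R15A, a phosphatase subunit that restores translation, fell by 0.90 ± 0.12. Genes named ZNF, mostly zinc finger repressors, were higher in 167 of 480 cases and lower in 41 (16.7% and 16.8% of all genes), and 19 and 2 passed with width (1.6% and 1.81% of all genes).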
